A study of Homo sapiens with 14 samples.

Results

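The 3 libraries of cells given hA3A-BE3 were compared with the 3 libraries of cells given Cas9, 6 of the 14 libraries of the series analysed here, chosen by their treatment labels. hA3A-BE3 is a cytosine base editor: a Cas9 nickase fused to human APOBEC3A, a cytidine deaminase, and to an inhibitor of uracil repair. Cas9 is the nuclease without a deaminase, so it brings a guide-directed cut but no enzyme that acts on cytosines. Both were expressed for 40 h after transfection in 293FT, a human embryonic kidney line with the SV40 large T antigen, and every title carries the name hRNF2, which the labels do not explain. Cells in the top 15% of fluorescence were sorted, and total RNA depleted of ribosomal and globin RNA was read in stranded pairs of 150 bases. The other groups are EGFP, non-transfected cells and the prime editor PE3; EGFP and non-transfected cells serve below only to mark sites found without either protein. Neither the amount of each protein nor the fluorescent marker of the sort is in the labels, and nothing in them says that replicates were separate cultures, so p-values speak only of the variation among the libraries at hand, part or all of it possibly technical.

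APOBEC3A removes the amino group of cytosine in single-stranded DNA and in RNA, which leaves uracil and reads as a C-to-U change. It is known to prefer a cytosine that follows a uracil and, in RNA, the last base of a short hairpin loop. ADAR enzymes, in contrast, turn adenosine to inosine in double-stranded RNA, and cells make such A-to-I sites with or without an editor. Below, C-to-U and A-to-I name the change of base in the lists. Whether some listed sites are differences in the DNA of the cells was not tested. An A-to-I site in NF2, for example, stood at 100% in all 6 libraries.

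Each library came as a list of called RNA sites. A site is a position where at least 2 reads and about 5% of the covering reads carry another base, and its level is the percentage of covering reads that are edited. Listed sites also had about 3 reads per Gb or more by the depth signal described below, a floor that rises with the mapped bases. Mapped bases behind the lists were 7.27, 5.87 and 8.87 Gb for hA3A-BE3 replicates 1 to 3 and 7.37, 5.44 and 10.6 Gb for Cas9, and numbers of sites are given per Gb. A site absent from a list was not called; its level is not known to be 0. The lists hold edited sites and not expression, so the identity of the cells could be checked only by the genes that carry sites. Of 8 epithelial and kidney line markers, 5 carried a hA3A-BE3 site (CDH2, KRT8, LIN28B, NEFL and VIM), and KRT18, EPCAM and NEFM did not. Blood cell markers had 0 of 9 and fibroblast markers 0 of 8. As only 23.2% of all protein-coding genes carried one, markers without a site say little, and these counts do not establish the type of cell.

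Example sequences come first. They are single sites picked to show features and not a sample of the lists, whose shares follow below. Each line gives 21 bases of the spliced transcript, 5′ to 3′ in DNA letters, from GENCODE release 29 (GRCh38). Capitals mark the edited cytosine and the 3 bases before it. The first 6 are hA3A-BE3 sites whose flanks pair with each other, so that the 4 capitals would form the loop of a hairpin that closes right after the edited base.
DDOST: ccccaacCATCgttgggaaat
MRM2: acaggctCATCagcctgtgcc
KIF1A: actgggcCTTCgcccagcgtg
MED1: ctccactCATCagtggttcca
NCAPD2: cattctcACTCgagaagccac
DNAJB1: gcttcacCAACgtgaactttg
In DDOST, for example, the bases caac before the loop pair with gttg after it. All 6 have 5 or more such pairs, which 4.35% of exonic hA3A-BE3 sites have (mean of 3 libraries). The A before the edited cytosine of DNAJB1 is also uncommon in these lists, as the shares below show. The next 5 are sites called in all 3 Cas9 libraries. The first 4 were also called in all 3 hA3A-BE3 libraries and thus do not separate the groups; RBM27 was called in none.
G3BP1: attctggTATCtaatcagatt
ADCY3: tgctgccCTACgtgctgtggc
ZBTB40: atcagatGCCCtctggcccat
MAP3K21: aaaagtcTGACgactggaata
RBM27: caggcccAGGCccgggcccag
None of these 5 holds the capitals CATC, and 4 of them have a base other than T before the edited cytosine. MAP3K21 also has flanks that pair, over 4 bases.

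Over the whole lists the groups differed in this. Of the exonic C-to-U sites of hA3A-BE3 libraries, 95.2%, 96.2% and 96.2% followed a U (replicates 1 to 3), and 21.9%, 19.4% and 20% of those of Cas9 libraries did. Pooled over Cas9 libraries, 16 of 75 distinct exonic sites followed a U, which is 21.3% with a 95% Wilson interval of 13.6% to 31.9%. The motif CATC, read as CAUC in RNA and ending in the edited base, stood at 35.5%, 30.4% and 30.9% of hA3A-BE3 sites and at 0 of 75 Cas9 sites, a count that allows a share of up to 4% (intervals and limits cover counting error only). Of all cytosines after a U in the same 4718 transcripts, 7.21% end this motif, and of those called with hA3A-BE3 29.7% do. Only the 16 Cas9 sites after a U could hold the motif, and 0 of 16 is too few to tell from 7.21%. By the share after a U, the hA3A-BE3 lists and the Cas9 lists differ in which cytosines they hold, as well as in how many.

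Pairing of the flanks followed the same division. A stem of 3 or more consecutive Watson-Crick pairs around a loop of 4 bases that ends in the edited cytosine was found at 18.5%, 15.4% and 15.0% of hA3A-BE3 exonic sites and at 3.13%, 3.23% and 5.71% of Cas9 exonic sites. Pooled over Cas9 libraries, these were only 2 of 75 distinct sites, or 2.67%. MAP3K21, printed above and called in every library, is among them. Among 1180840 cytosines after a U in those transcripts, 23900 (2.02%) have such a stem. Of these 23900, 1226 were called in a hA3A-BE3 library, or 5.13%, against 0.726% of the cytosines after a U without one. Where CATC and the stem came together, 359 of 1644 cytosines were called, or 21.8%, against 3.00% of CATC cytosines without the stem. The stem is a reading of the letters, not a measured structure, and the loop length was chosen after the data were seen. With a loop of 3 bases the called share was 5.17 times that of all cytosines after a U, with 5 bases 1.5 times and with 6 bases 0.716 times, against 6.29 times with 4. At a loop of 4 bases it was 3.11 times with 2 or more pairs, 11.7 times with 4 or more and 3.10 times with G-U pairs allowed.

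Cells given hA3A-BE3 carried about 96.0 times as many C-to-U sites per Gb as cells given Cas9. The hA3A-BE3 libraries held 344, 870 and 727 sites per Gb, a mean of 647 ± 272 (SD, n = 3), from 2499, 5113 and 6446 sites. The Cas9 libraries held 5.97, 8.27 and 4.98 per Gb, a mean of 6.41 ± 1.69 (SD, n = 3), from 44, 45 and 53 sites. The lowest hA3A-BE3 library, replicate 1, lay far above the highest Cas9 library. The mean difference was 6.58 on the log2 scale, from which the fold comes, as do the others given for these tests, with an exact permutation p = 0.1 (two-sided, as are all others below). Designs of 3 against 3 reach no lower value than 0.1. The exact permutation p was 0.133 after Benjamini-Hochberg adjustment over the 12 values tested. None of the 12 could therefore pass 0.05, and what follows gives the values and whether the groups overlap.

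The other changes did not separate in that way. A-to-I sites numbered 266, 343 and 282 per Gb in hA3A-BE3 and 195, 235 and 275 in Cas9 libraries, 1.27 times as many, and the groups overlapped (exact permutation p = 0.2, adjusted p = 0.24). The 10 remaining kinds of change together gave 35.4, 41.4 and 37.0 per Gb against 26.5, 41.5 and 30.3, again overlapping (exact permutation p = 0.4, adjusted p = 0.436). Cas9 replicate 2 had more of them than any hA3A-BE3 library.

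**Figure D1:**
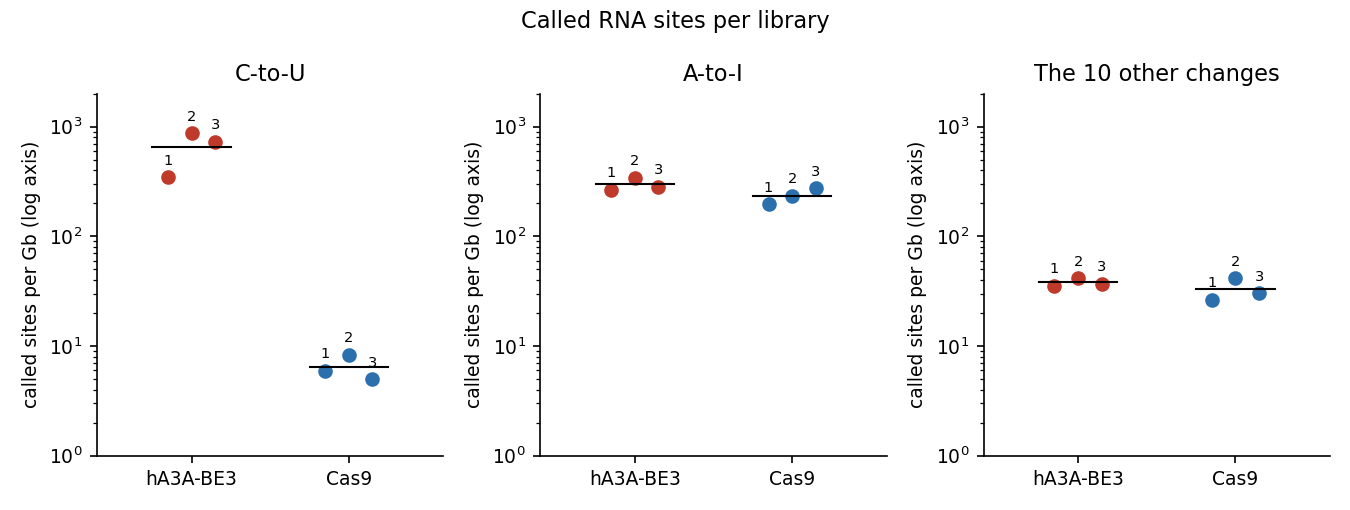
Called sites per Gb of mapped bases (log axis) for C-to-U, A-to-I and the 10 other changes together; each point is a library with its replicate number and the black line is the mean of 3. C-to-U sites run from 344 to 870 per Gb in hA3A-BE3 and from 4.98 to 8.27 in Cas9, while the points of the other panels overlap.

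Over the 3 libraries hA3A-BE3 gave 10353 distinct C-to-U sites and Cas9 gave 107. Of the hA3A-BE3 sites, 7720 were called in 1 library, 1561 in 2 and 1072 in all 3. The corresponding numbers in Cas9 were 86, 7 and 14. In all, 27 sites were common to both groups, 25.2% of those of Cas9 and 0.261% of those of hA3A-BE3. Cas9 sites called in 2 or 3 Cas9 libraries were all called in EGFP or non-transfected cells too, 7 of 7 and 14 of 14, as were 17 of the 86 called in 1. Of the hA3A-BE3 sites, 30 were. Leaving out all sites of EGFP or non-transfected cells left 2479, 5093 and 6418 hA3A-BE3 sites and 19, 25 and 25 Cas9 sites, or 341, 867 and 724 against 2.58, 4.60 and 2.35 per Gb, a 197-fold difference.

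No difference in level between the groups was called at the 9 sites called in all 6 libraries. With 3 libraries a group, small differences could be missed. G3BP1, which encodes a stress granule protein, carried its site at chromosome 5, position 151805140, in the 3′ UTR, at 34.8%, 34.7% and 27.2% of 193 to 247 reads in hA3A-BE3 libraries and at 32.2%, 28.2% and 34.3% of 78 to 276 reads in Cas9 libraries. These values interleave. DCBLD2, a membrane protein gene, had its coding site, I262I, at 40.5% ± 19.7 with hA3A-BE3 and 40.0% ± 9.92 with Cas9 (SD, n = 3). ZBTB40, a zinc finger gene, had a 3′ UTR site at 29.3% ± 7.29 and 35.6% ± 4.65 (SD, n = 3). ADCY3, an adenylyl cyclase, had its coding site, Y141Y, at 22.3% ± 5.34 and 29.8% ± 13.7 (SD, n = 3). DNAJC21, a co-chaperone, and MAP3K21, a kinase, had 3′ UTR sites at 20.9% and 15.3% with hA3A-BE3 and at 27.7% and 19.2% with Cas9. An intronic site of MEF2C-AS1 stood at 100% in every library but Cas9 replicate 3, where it was 97.8%. The other two sites lay close together in an intron of ATAD3B, whose near-identical copy ATAD3A makes their reads uncertain. In limma's test across the sites of every kind of change called in all 6 libraries, the adjusted p of these 9 was 0.928 or more.

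Only 2 sites were called in all 3 Cas9 and no hA3A-BE3 library, and both were also called in EGFP or non-transfected cells. UBXN11, a UBX domain gene, had a coding site that would give P501S at 77.8%, 100% and 93.75% of 9 to 16 reads. RBM27, an RNA-binding protein gene, had G350G at 41.2%, 31.6% and 17.8% of 17 to 45 reads.

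Sites of hA3A-BE3 lay in 1857, 3057 and 3583 genes per library and those of Cas9 in 42, 39 and 45. Scaled, this was 256, 520 and 404 genes per Gb against 5.70, 7.17 and 4.23, a 67.7-fold difference (exact permutation p = 0.1, adjusted p = 0.133), without overlap. Without sites of EGFP or non-transfected cells the fold was 137, and relative to the number of A-to-I sites it was 53.4. Over the libraries, 4671 genes carried a hA3A-BE3 site and 1244 of them did so in all 3. Of 92 genes with a Cas9 site, 65 also had a hA3A-BE3 site, which is 70.7% of the former and 1.39% of the latter. Among protein-coding genes of the annotation, 23.2% of 19907 had a hA3A-BE3 site and 0.432% a Cas9 site. Genes hit repeatedly were more frequent with hA3A-BE3: 23.3%, 38% and 42.6% of its genes held 2 or more sites within a library, against 2.38%, 5.13% and 6.67% with Cas9. Over the 3 libraries, 46 genes held 10 or more distinct hA3A-BE3 sites, and no gene held more than 4 with Cas9. Both measures rise with the number of sites, 2499, 5113 and 6446 per library against 44, 45 and 53. Whether genes were hit again beyond that was not tested.

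KIF1A, a neuronal kinesin, TRIO, a guanine nucleotide exchange factor, and HUWE1, a HECT-domain ubiquitin ligase, held the most, 20 distinct sites each and 0 with Cas9. Within libraries KIF1A had 4, 11 and 13 sites, TRIO 3, 13 and 10, and HUWE1 7, 14 and 6. The sites differed from library to library: 1 of 20 in KIF1A, 2 in TRIO and 3 in HUWE1 were called in all 3. The recurrent KIF1A site, F630F in exon 21 of 50 at chromosome 2, position 240763225, is the one with 6 stem pairs printed above and stood at 34.6%, 48.1% and 39.5%. FLNA, which cross-links actin, followed with 18 distinct sites, all coding. The ribosome-associated kinase activator GCN1 and the ubiquitin ligase UBR4 had 17 each, also all coding. GCN1 held a site that would give S130L at 66.7% of 27 reads in replicate 3, listed in neither other library. POLE, the catalytic subunit of DNA polymerase epsilon, had 15, and SESN2, PRRC2B and RAD54L2 had 14 each. All of these but SESN2 have transcripts of 5647 to 15906 bases, against 3453 bases for SESN2.

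Counted per length, shorter transcripts led. Among 392 genes with 5 or more exonic sites the median was 1.08 distinct sites per kb. DNAJB1, an HSP40 co-chaperone induced by heat shock, had 5.30 per kb, with 12 sites in 2264 bases, 5, 8 and 9 of them per library. Its highest site, N143N, is preceded by A and not by U, has 5 stem pairs and stood at 19.8%, 27.1% and 26.1% of 96 to 245 reads. The magnesium transporter gene SLC41A3 had 4.45 sites per kb, the phosphatase subunit gene PPP1CA 4.32 and ECH1, an enzyme of fatty acid oxidation, 4.25. DDOST, a subunit of the oligosaccharyltransferase, had 4.23 per kb and a site of high level that was called in no Cas9 or control library: I186I, in exon 5 of 11 at chromosome 1, position 20655484, stood at 84.5%, 82.6% and 88.4% of 264, 190 and 292 reads. The stress-response genes SESN2 and TRIB3 had 4.05 and 3.91 per kb, ATG13, an autophagy factor, 3.83 and MRM2, a mitochondrial rRNA methyltransferase, 3.75. MRM2 I171I, with 7 stem pairs, stood at 28.75%, 22.9% and 52.6%, a wider spread than that of DDOST.

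Functional lists show how sites fell over cellular machinery; the share of all protein-coding genes with a hA3A-BE3 site, 23.2%, stands beside each count. Transcript length and expression are not matched in these counts, and nothing is called particular to a list. Of 26 nuclear import and export genes, 21 had a site, led by the importin IPO9 with 7 distinct sites and KPNA6 with 6. Of 25 ubiquitin ligases with HECT or RING domains, 20 had one, of 23 lamin and nuclear pore genes 17, led by NUP210 with 11 sites, and of 32 genes of the DNA damage response 23, led by SESN2 and PRKDC. Chaperones had 15 of 24, with DNAJB1 at 12 sites and BAG3, a co-chaperone of HSP70, at 8. Nonsense-mediated decay had 11 of 18, led by SMG5 with 12 and UPF1 with 11. SMG5 carried a site that would give R543W at 12.6%, 26.1% and 25.9% of 134 to 212 reads. RNA polymerase II and Mediator had 11 of 26, with MED13L at 8 sites and MED1 at 7; MED1 I1436I, printed above, stood at 11.8%, 21.6% and 25.6%. Of 20 known ADAR targets 9 had a C-to-U site, of 16 RNA editing enzymes and cofactors 4 (ADAR had 4 sites, all in the 3′ UTR), and of 21 interferon response genes 3, where EIF2AK2 had 4 sites. The median of the site means ran from 5.88% to 8.55% over the lists with a site, against 8.80% over all genes. In Cas9 libraries these lists held 1 site each in BAX, XPOT, POLR2I and HERC1, at 7.89%, 6.06%, 5.36% and 10%, none of them called with hA3A-BE3 or in the other controls.

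Covering reads at C-to-U sites were more numerous with hA3A-BE3. The median was 48, 45 and 53 reads against 27, 21 and 39 with Cas9, 1.73-fold, without overlap (exact permutation p = 0.1, adjusted p = 0.133). Over sites edited at 10% or more the medians were 33.3 and 26 reads (means of 3 libraries), with an exact permutation p = 0.3. A-to-I sites of the same libraries had medians of 24, 20 and 27 and of 26, 18 and 33, which overlap. From 50 to under 100 reads, hA3A-BE3 libraries had 113, 278 and 270 C-to-U sites per Gb and Cas9 libraries 0.950, 0.919 and 1.6, a ratio of means of 190. From 20 to under 50 reads that ratio was 89.7, and under 20 reads it was 21.6, where the Cas9 libraries held 9, 20 and 2 sites. At 100 reads or more, hA3A-BE3 libraries held 368, 620 and 1132 sites and Cas9 libraries 3, 1 and 2. The ratio was larger in each deeper bin of these 3. Beyond them it rests on very few Cas9 sites. It was 1515 from 100 to under 200 reads, with 1, 0 and 0 Cas9 sites, and 121 at 200 reads or more, with 2, 1 and 2.

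Level and depth are tied by the limits of the lists, since 2 edited reads are a larger part of a small number of reads. The median level of hA3A-BE3 sites was 20.1% under 20 covering reads, 10.9% from 20 to under 50 and 7.06% from 50 to under 100 (means of 3 libraries). At 100 reads or more it was 7.63%, 7.69% and 7.60% by replicate. At such depth 8.42%, 9.68% and 8.83% of sites were edited at 20% or more.

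Taken as listed, hA3A-BE3 sites were lower in level than Cas9 sites. From 5% to 10% lay 54.4% ± 4.39 of hA3A-BE3 sites and 33.0% ± 5.46 of Cas9 sites, and from 10% to 20% lay 33.3% ± 2.04 and 23.5% ± 5.05 (SD, n = 3). From 20% to 50% lay 11.5% ± 2.44 and 35.6% ± 5.21, and at 50% or more 0.836% ± 0.0556 and 7.99% ± 3.79 (SD, n = 3). In none of the 4 bins did the groups overlap (exact permutation p = 0.1, adjusted p = 0.133 in each). These differences were carried by sites that EGFP or non-transfected cells share. Without those sites the bins held, in the same order, 54.6% and 55.7%, 33.4% and 33.6%, 11.2% and 10.7%, and 0.739% and 0%. The first 3 differences were then -1.08, -0.22 and 0.56 percentage points (exact permutation p = 1 in each) and the last 0.74 points (exact permutation p = 0.1). At 50% or more lay 15, 44 and 48 hA3A-BE3 sites and 0, 0 and 0 Cas9 sites. As 0 of 69 Cas9 calls allows a share of up to 4.35%, a share as low as that of hA3A-BE3 was not detectable in the Cas9 lists.

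**Figure D2:**
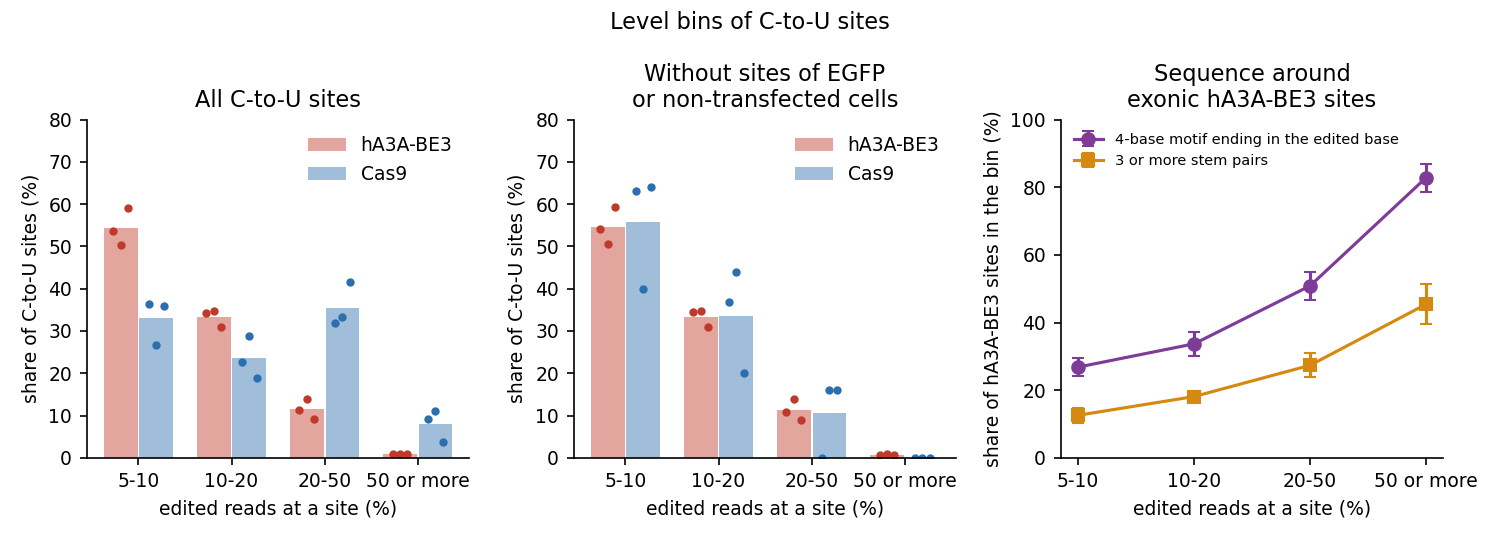
Left and middle, share of C-to-U sites (%) in bins of level for all sites and without sites of EGFP or non-transfected cells; bars are means of 3 libraries and points are libraries. The bins differ at left, such as 54.4% against 33.0% from 5% to 10%, and come close at middle, 54.6% against 55.7%. Right, share (mean ± SD of 3 libraries) of exonic hA3A-BE3 sites with the 4-base motif or with 3 or more stem pairs in each bin, which goes from 26.8% to 82.8% and from 12.6% to 45.4%.

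Level went with sequence among hA3A-BE3 sites. The motif CATC stood at 26.8% ± 2.55 of exonic sites edited at 5% to 10%, at 33.7% ± 3.55 from 10% to 20%, at 50.9% ± 4.13 from 20% to 50% and at 82.8% ± 4.08 at 50% or more (SD, n = 3). Stems of 3 or more pairs stood at 12.6% ± 2.24, 18.1% ± 0.911, 27.4% ± 3.59 and 45.4% ± 5.94 (SD, n = 3). The order of the bins was the same in each of the 3 libraries for both features. Sites with such a stem had a median level of 11.4%, 12.5% and 10.8%, and sites without one 9.09%, 9.43% and 8.51%, at median depths of 47, 42 and 52 reads and of 48, 46 and 53 reads.

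Along the transcript, the mean position of hA3A-BE3 sites was nearer the 5′ end than that of the cytosines after a U described below. More of the sites were coding, and the 5′ UTR and the first part of the transcript held fewer than their share of those cytosines. By library 74.3%, 70.3% and 70.5% of hA3A-BE3 sites were coding, against 62.5%, 64.5% and 71.4% of Cas9 sites, so in this the groups overlapped. The mean relative position, from 0% at the 5′ end to 100% at the 3′ end of the spliced transcript, was 42.9%, 43.1% and 43.3% with hA3A-BE3 and 43.8%, 48.1% and 49.5% with Cas9 (exact permutation p = 0.1, adjusted p = 0.133). The groups did not overlap, but Cas9 replicate 1 lay close above hA3A-BE3 replicate 3, and over sites edited at 10% or more the exact permutation p was 0.2. Only 32, 31 and 35 exonic Cas9 sites stand behind these means, against 2426, 4995 and 6303. In the last exon lay 31.9%, 35.3% and 36% of hA3A-BE3 sites and 59.4%, 58.1% and 40% of Cas9 sites (exact permutation p = 0.1, adjusted p = 0.133). Without sites of EGFP or non-transfected cells the shares were 34.2% and 45%, and the separation was lost (exact permutation p = 0.3).

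The cytosines after a U in the same transcripts give a base line, each weighted by the sites of its transcript; it counts every cytosine once, since coverage along transcripts is not in the lists. Their mean position was 50.2%, with 47.2% in the last exon and 53.1% in coding sequence. Of hA3A-BE3 sites 71.7% were coding, 25.9% in the 3′ UTR and 2.45% in the 5′ UTR (means of 3 libraries). Of the cytosines after a U, 40.4% were in the 3′ UTR and 6.50% in the 5′ UTR. Cytosines that end CATC lay between, with a mean position of 48.3%, 42.3% in the last exon and 62.9% coding. With the transcript cut into 10 equal parts, hA3A-BE3 sites were most frequent in the second, with 14.5%, and least in the last, with 4.45%. The first part held 8.75% of the sites and 9.60% of the cytosines after a U. Within coding sequence the mean position was 50.3%, 49.7% and 50%, the middle. Of coding hA3A-BE3 sites 10.9%, 11.6% and 13.1% were in the last exon.

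Neighbouring hA3A-BE3 sites were in most cases far apart. Within a library the median distance between neighbours on a transcript was 631, 565 and 566 bases, and 8.63%, 9.33% and 8.40% of neighbours were within 50 bases. Cas9 libraries had 1 such pair in all.

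Replicate 1 of hA3A-BE3 had fewer sites than replicates 2 and 3, and lower levels at the sites called in all 3 libraries. Over all listed C-to-U sites its level was not the lowest, with medians of 9.38%, 9.80% and 8.78% for replicates 1 to 3. Replicate 1 was not the shallowest: it had 7.27 Gb, against 5.87 Gb in replicate 2, which had the most sites per Gb. At the 1057 sites called in all 3 hA3A-BE3 and no Cas9 library, none of which was called in EGFP or non-transfected cells, the median level was 10.7%, 15.5% and 15.0% at median depths of 63, 52 and 77 reads. Replicate 1 gave the lowest of the 3 levels at 690 sites, replicate 2 at 177 and replicate 3 at 190. A site had to reach about 5% in every library to be among them.

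Levels of replicate 2 were higher than those of replicate 1 at 818 of the 1057 sites, with a median paired difference of 4.07 percentage points, and those of replicate 3 at 803, with 3.74 points. Between replicates 2 and 3 the median difference was -0.04 points and replicate 3 was higher at 519. Fisher's exact test per site compares libraries and not conditions, takes reads as independent molecules and covers counting error only. It called 32 sites (3.03%) between replicates 1 and 2 and 34 (3.22%) between 1 and 3 at an adjusted p under 0.05, all lower in replicate 1. Between 2 and 3 it called 0 (0%), with 46 at an unadjusted p under 0.05. With at least 50 reads in each library, 530 sites remained, with median levels of 8.82%, 12.95% and 13%; the same test then called 37 (6.98%), 44 (8.3%) and 0 (0%). Pearson's r of levels over the 1057 sites was 0.769, 0.791 and 0.813 for the pairs 1 and 2, 1 and 3, and 2 and 3; sites share libraries and sequence preference, so this is a description. Replicate 1 was also the lowest of the 3 in mean A-to-I level, 26.9% against 29.4% and 28.9% at the sites described below. What made it lower was not tested.

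**Figure D3:**
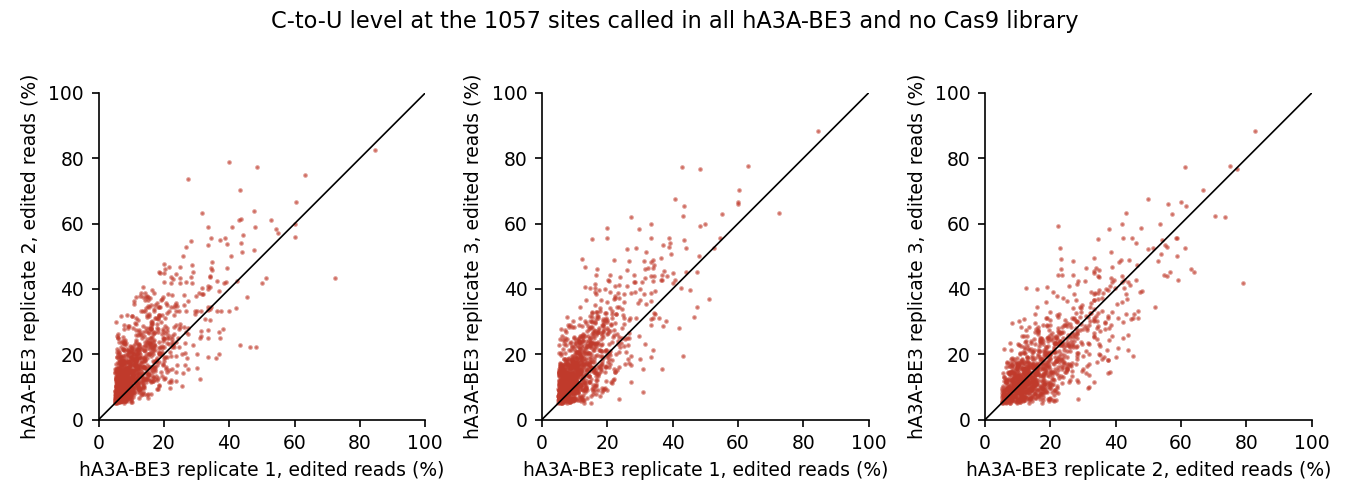
Level of C-to-U editing (% of covering reads) at the 1057 sites called in all hA3A-BE3 and no Cas9 library, for each pair of hA3A-BE3 replicates; points are sites and the line marks equal levels. In the left and middle panels 818 and 803 sites lie above the line, and 519 in the right panel.

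Among sites with at least 50 reads in each library, EIF2B1, a subunit of the translation factor eIF2B, spread most, with I301I at 16.9%, 23.1% and 46.1%. FARSB, a subunit of phenylalanyl-tRNA synthetase, had I237I at 20.3%, 46.1% and 42.9% of 102 to 128 reads. CHAF1A, a chromatin assembly factor, had I753I at 5.17%, 30% and 15.5%. ASAH1, acid ceramidase, PRRC2B, POLDIP3, ASNA1, SENP2, SF3A1 and SAR1A completed the 10 widest, with ranges of 21.2 to 25.2 points. Replicate 1 was the lowest in each of these 10. EIF2B1, FARSB and CHAF1A share CATC, and each has 1 stem pair by the rule used above.
EIF2B1: atgagctCATCaagctctatc
FARSB: ctcccatCATCaatggggatc
CHAF1A: gcaaggtCATCatccgggagt
The steadiest was NCAPD2, a condensin subunit, whose site in exon 14 of 32 would give R537X, a stop, at 15.8%, 16.1% and 16.1% of 193 to 280 reads. Its sequence, printed with the first set, has 5 stem pairs and the loop ACTC. DNAJA1, JPT2, ANKLE2 and APPBP2, the next steadiest, stood between 5.04% and 8.13%, close to the lower limit of the lists.

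The chance that a site of 1 library was listed in both others went with its level. For replicate 3 it was 6.98% of sites at 5% to 10%, 22.3% at 10% to 20%, 54.9% at 20% to 50% and 71.2% at 50% or more. For replicate 2 it was 8.69%, 26.4%, 48.4% and 71.7%. For replicate 1 it was 35.7%, 46.3%, 65.1% and 70%. The 1072 sites listed in all 3 are the same for each library, but replicate 1 listed 2499 sites in all, against 5113 and 6446. These shares therefore depend on the length of the lists, and their difference between replicates is not a measure of the sites alone.

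A-to-I editing was compared at the 337 sites, in 111 genes, that were called in all 6 libraries: 227 in 3′ UTRs, 43 in introns, 43 between genes, 15 in non-coding exons, 8 in coding sequence and 1 in a 5′ UTR. The mean level over them was 26.9%, 29.4% and 28.9% with hA3A-BE3 and 26.1%, 29.3% and 28.2% with Cas9, or 28.4% ± 1.29 and 27.9% ± 1.65 (SD, n = 3). The difference of 0.533 percentage points was smaller than the spread within either group (exact permutation p = 0.6, adjusted p = 0.6), and replicate 1 was the lowest of both. In 3′ UTRs the means were 29% and 28.3%, in introns 28.7% and 30.2%. At sites in genes with a hA3A-BE3 C-to-U site they were 29.1% and 28.4% (213 sites), and at the other 124 sites 27.2% and 27.0%. The 337 sites were 5.59% of the 6033 distinct A-to-I sites of the 6 libraries, and 2007 (33.3%) were called in both groups. A site missing from any of the lists was left out. The comparison of levels therefore does not cover sites called only with hA3A-BE3 or only with Cas9.

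Site by site, the hA3A-BE3 mean was higher at 174 sites and lower at 162, with a median difference of 0.41 points and quartiles of -3.51 and 4.20. At 207 sites the means were within 5 points. The libraries of the groups did not overlap at 40 sites (11.9%), 22 higher and 18 lower with hA3A-BE3. limma on log2 odds called 0 of 337 sites (0%) at an adjusted p under 0.05, with 16 (4.75%) at an unadjusted p under 0.05, and a quasi-binomial model called 0 with 23. On simulated data of this size limma recovered 13 of 20 sites set to differ by 2 in log2 odds in each direction and 4 of 20 set to differ by 1, so smaller differences would mostly be missed.

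The sites with the largest differences were picked by that size, so whether their libraries overlap is a description. GJC1, a gap junction gene, had a 3′ UTR site at 72%, 51.7% and 72.7% with hA3A-BE3 and 46.4%, 36.4% and 36.2% with Cas9 (limma adjusted p = 0.551). These do not overlap, but 11 reads stand behind Cas9 replicate 2. A site between genes at chromosome 10, position 94612805, was at 9.68%, 13.3% and 10% against 30.4%, 25% and 33.3% (limma adjusted p = 0.174), also without overlap. Another between genes, at chromosome 7, position 152645818, was at 52.4% ± 13.2 against 29.7% ± 12.5 (SD, n = 3), and its libraries overlapped. Sites in MRPL30 and MBD3 did not overlap, at 10.8% against 29.1% and 51.6% against 36.1%, nor did those in BPNT1, at 49.3% against 67.2%, NOM1, at 48.6% against 31%, and SSR3, at 54.6% against 37.4%. The sites in GTPBP10 and RPL7L1, at 35% against 17% and 42.2% against 59.6%, overlapped. The limma adjusted p of these 7 sites was 0.661 or more. TMPO, which encodes a lamina protein, was named after its values were seen for the smallest p: its 3′ UTR site was at 87.9%, 77.4% and 88.6% with hA3A-BE3 and 95.5%, 100% and 100% of 22, 10 and 30 reads with Cas9 (limma adjusted p = 0.170, and 0.0499 with the replicate number as a block). Leaving out Cas9 replicate 1 also brought it under 0.05, with an adjusted p of 0.0207 in limma, and over all alternatives the adjusted p ran up to 0.882.
TMPO: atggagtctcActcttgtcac
GJC1: tcaaagtgttAgtattatagg
In these 2 lines the capital is the edited adenosine. Known ADAR targets held 12 of the 337 sites, 9 in NUP43, 2 in XIAP and 1 in NEIL1, and the groups overlapped at all but 1. NUP43, a nuclear pore gene, had its highest site at 88.4% ± 10.7 and 85.2% ± 10.3, XIAP, an inhibitor of apoptosis, at 70.6% ± 5.06 and 74.2% ± 6.84, and NEIL1, a DNA glycosylase, an intronic site at 40.4% ± 5.58 and 42.8% ± 6.83 (SD, n = 3). The NUP43 site without overlap, named after its values were seen, was at 5.13%, 9.38% and 6.67% with hA3A-BE3 and at 12.5%, 18.8% and 12% with Cas9. The NUP43 sites next in level were at 23.8% and 21.5% with hA3A-BE3 and at 15.7% and 26.1% with Cas9.

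**Figure D4:**
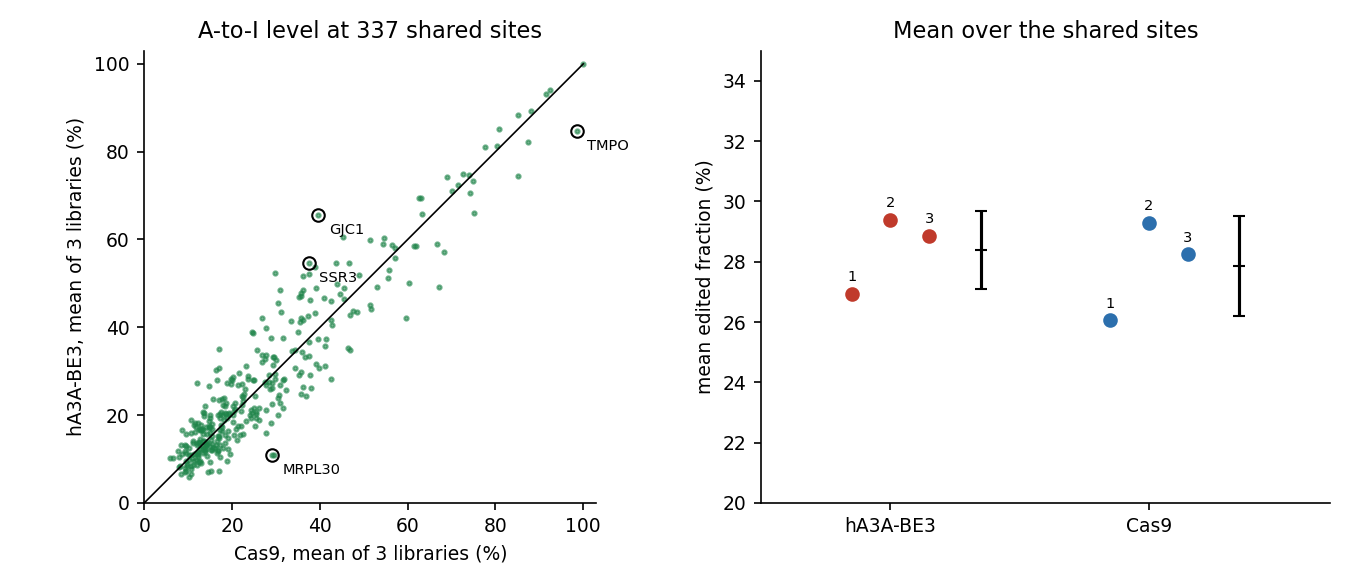
Left, mean level of A-to-I editing (%) at the 337 sites called in all 6 libraries, Cas9 on the x axis and hA3A-BE3 on the y axis, with the line of equal levels and 4 named sites circled. Right, mean level over these sites by library (points with replicate numbers, y axis from 20% to 35%) with mean ± SD, 28.4% ± 1.29 and 27.9% ± 1.65.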

How the data were processed

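Groups and replicate numbers came from the labels. The authors deposited a headerless list of called sites per library. Its deposited counts are whole numbers of reads: covering reads, reads with each base and mutated reads. Its deposited fractions give the share of each base among those reads and the share that is edited. A deposited signal column, a larger depth divided by a constant, was read as reads per Gb of mapped bases, an inference from the values. The submitters' processing notes name BWA 0.7.17 and, as builds, GRCh38 and hg38. The caller (not given in the sources used here) and its filters are thus known only through the values. Edited reads were the edited fraction times covering reads, rounded. Strands were recovered from the base columns, and 17541 of 17541 exonic sites matched the reference base of GENCODE release 29. How the authors set strands is not given, so overlapping genes carry that uncertainty. Positions use the protein-coding transcript with the longest coding sequence; protein changes are numbered in it (X, stop).

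One value per library was compared by two-sided exact permutation over all 20 assignments, with Benjamini-Hochberg adjustment over 12 values. A-to-I levels were tested with limma 3.58.1 (R 4.3.3) on log2 odds with 0.5 added to each count, and C-to-U levels between replicates with Fisher's exact test (scipy 1.17.1). Scripts were tested on simulated data. Alternatives were limits on reads or level, other scalings and transcripts, sites shared with controls, a block for the replicate number, and each library left out in turn.

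Named genes were those with the most distinct hA3A-BE3 sites, in number (10) and per kb (10), the widest (10) and steadiest (5) replicate levels, sites called in all 6 or only in all Cas9 libraries, the largest A-to-I differences (10) with up to 5 known targets, and up to 2 genes per list. Of the genes that the 13 lists put forward, some are given by their count only. Some genes that the rule names are left out of the text. Members and lists were chosen with earlier results of these data known.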

Additional observations from a re-analysis of the deposited data

How the results depend on the processing

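Of 162 alternative values for the 12 tested quantities, 155 kept their direction and 7 reversed. Without sites of EGFP or non-transfected cells all 4 level bins reversed, to -1.08, -0.217, 0.559 and 0.739 percentage points. The other changes per Gb reversed with at least 5 mutated reads (-0.00708 on the log2 scale) and relative to the number of A-to-I sites (-0.110). The difference in mean A-to-I level ran from -0.623 to 1.27 points on leaving out each library; it reversed without Cas9 replicate 1. C-to-U sites per Gb kept a log2 difference of 6.03 to 7.62 in 15 alternatives, and 79.8-fold to 127-fold on leaving out each library. The number of A-to-I sites called by limma ran from 0 to 1 on leaving out each library, with TMPO called without Cas9 replicate 1, and was 1, TMPO again, with a replicate block; the other alternatives gave 0. No A-to-I site among the largest differences reversed in any alternative, nor did TMPO. The share of called cytosines with a stem reversed only with a loop of 6 bases, to -0.48 on the log2 scale, an alternative chosen after seeing the data.

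Replicate numbers share only a number: deviations of same-numbered libraries over the A-to-I sites correlated at 0.128, 0.0515 and 0.0401, each library best with its own number, a hint from the data and not the design. With the replicate block, C-to-U sites per Gb differed by 6.58 with an exact sign-flip p = 0.25, the smallest that 3 pairs allow. The exact permutation test over 3 against 3 libraries cannot reach 0.05 under any alternative. Shares within the Cas9 lists rest on 44 to 53 C-to-U sites each.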
